A study of Mus musculus with 4 samples.

Results

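The genes described here are 36 mouse genes of the interferon response and of MHC class I antigen presentation, chosen by symbol. Of these, 35 had a value among the 13677 genes of the tables, and Psmb9, an immunoproteasome subunit gene, had none under its identifier. They were divided by role into 22 genes named for the type I response and 14 gamma-type genes, of which 22 and 13 had values. RNA was sequenced from inguinal white fat, which lies under the skin of the mouse's groin, and the question of the study is what the tumour suppressor folliculin and the mTOR pathway have to do with browning of fat. There were 2 wildtype (WT) libraries and 2 libraries labelled FLCNKO, a knockout of the folliculin gene in adipose tissue per the design text. No source used here gives strain, age, sex, diet, Cre driver or the deleted part of the gene. Whether each library came from its own mouse is not stated in the labels, so p-values measure the spread between these libraries only.

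Interferons are secreted proteins by which cells warn each other of viruses. Type I interferons act through a receptor made of Ifnar1 and Ifnar2 and, by way of the factor ISGF3, which holds STAT2 and IRF9, switch on genes that carry the interferon-stimulated response element (ISRE). Interferon gamma, a product of T and NK cells, acts through Ifngr1 and Ifngr2 on genes with gamma-activated sites (GAS), with IRF1 as a second wave. MHC class I molecules, built of a heavy chain such as H2-K1 or H2-D1 and the light chain B2m, show peptides from inside the cell to CD8 T cells. The immunoproteasome cuts those peptides and the TAP transporter carries them into the endoplasmic reticulum. Every nucleated cell type of fat makes class I, and most can respond to interferon. In bulk tissue, fewer cells of a type and less RNA per cell cannot be told apart.

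These sequences show the letters through which the classes are known to be read by their transcription factors. They are stretches of 70 bases before the start site of 8 members, printed 5′ to 3′ on the gene's strand, from RefSeq on GRCm38.p6. Capitals mark the ISRE core (GAAA, 2 bases of any kind, GAAA), the GAS core (TTC, 3 bases of any kind, GAA) or enhancer A of class I genes (GGGGA, 1 base of any kind, TCCCC), each searched on both strands. H2-K1 (chr17:34000419-34000488, minus strand) and H2-D1 (chr17:35262893-35262962, plus strand) stand for heavy chains, B2m (chr2:122147518-122147587, plus) for the light chain, Isg15 (chr4:156200851-156200920, minus), Ifit1 (chr19:34640764-34640833, plus) and Ifit3 (chr19:34583360-34583429, plus) for type I effectors, and Igtp (chr11:58199486-58199555, plus) and Irf1 (chr11:53769893-53769962, plus) for gamma-type genes.
H2-K1: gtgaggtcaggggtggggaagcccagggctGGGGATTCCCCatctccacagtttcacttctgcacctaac
H2-D1: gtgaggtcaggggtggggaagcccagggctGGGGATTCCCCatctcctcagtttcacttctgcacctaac
B2m: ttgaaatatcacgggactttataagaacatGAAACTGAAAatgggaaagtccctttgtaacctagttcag
Isg15: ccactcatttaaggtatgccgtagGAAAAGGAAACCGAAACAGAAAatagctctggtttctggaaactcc
Ifit1: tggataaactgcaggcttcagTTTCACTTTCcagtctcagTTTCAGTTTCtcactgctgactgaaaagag
Ifit3: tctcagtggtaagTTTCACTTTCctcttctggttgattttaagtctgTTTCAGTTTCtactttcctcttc
Igtp: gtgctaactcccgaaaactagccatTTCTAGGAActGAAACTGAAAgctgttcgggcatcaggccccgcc
Irf1: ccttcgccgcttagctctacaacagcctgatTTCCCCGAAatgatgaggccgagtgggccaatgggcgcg

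The stretches of H2-K1 and H2-D1 were identical at 69 of 70 bases, and both held enhancer A. Promoter windows, from 250 bases before to 50 after a start site, were matched for 28 of the 36 members (33 windows). The ISRE core was in the windows of 15 of 28 members (53.6%), against 3.99% of all 27025 genes with a window. It was in 9 of 15 type I members, in 5 of 6 of Irf1 and the GTPases, and in 1 of 7 class I presentation members, B2m. The GAS core was in 7 of 28 members (25% against 9.55% of all genes), among them Irf1, Igtp, Gbp7 and Psmb8. Enhancer A was in 2 of 28 members against 0.0555% of all genes. A GAS and an ISRE match overlapped in Bst2, and of the 3 ISRE matches of Isg15 each neighbouring pair overlapped. A match is a description of letters, not a measured binding site, and a window without a match may hold an element spelled otherwise.

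All values below are the deposited log2 values, whose distribution was nearly equal in the 4 libraries, with library medians between 10.7636 and 10.7645. Gene length was not taken into account, so levels of different genes are not compared, and a sum of levels over a list is compared only with the same sum in other libraries. Flcn itself did not separate the groups, with 12.36 and 12.21 in WT and 12.35 and 12.12 in FLCNKO (log2 fold change -0.05 ± 0.13, SE; limma adjusted p = 0.852). With the deleted part of the gene not known, Flcn does not check the labels here, and FLCNKO below means the libraries so labelled. The median absolute log2 difference over all genes was 0.147 between the WT libraries and 0.247 between the FLCNKO libraries. Of the adipocyte markers, 8 of 8 had values, between 13.78 and 20.57 over all libraries. Libraries are given below in the order replicate 1, replicate 2.

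No member passed the test between the groups (limma, Benjamini-Hochberg adjusted p under 0.05), with 0 of 35 higher and 0 of 35 lower. Over all genes 0.98% were called higher and 0.614% lower, 1.59% in either direction. At an unadjusted p under 0.05, 8 members were lower and 0 higher, that is 22.9% of members against 10.3% of all genes for lower and 12.1% for higher. The group mean was lower in FLCNKO for 34 of 35 members, against 49.6% of all genes, and the median log2 fold change of the members was -0.40 (0.00 over all genes). The groups did not overlap, with FLCNKO lower, for 11 of 35 members, or 31.4% against 25.4% of all genes, and with FLCNKO higher for 0 of 35 against 29.2% of all genes. For 26 of 35 members (74.3%) the 2 libraries of a group differed by more than the group means did, against 57.7% of all genes. Leaving out 1 library moved the number lower at an unadjusted p under 0.05 to 3 without WT replicate 1, 9 without WT replicate 2, 14 without FLCNKO replicate 1 and 5 without FLCNKO replicate 2, and limma then called 0 genes of the whole table, with 1395 to 3455 at an unadjusted p under 0.05.

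**Figure D1:**
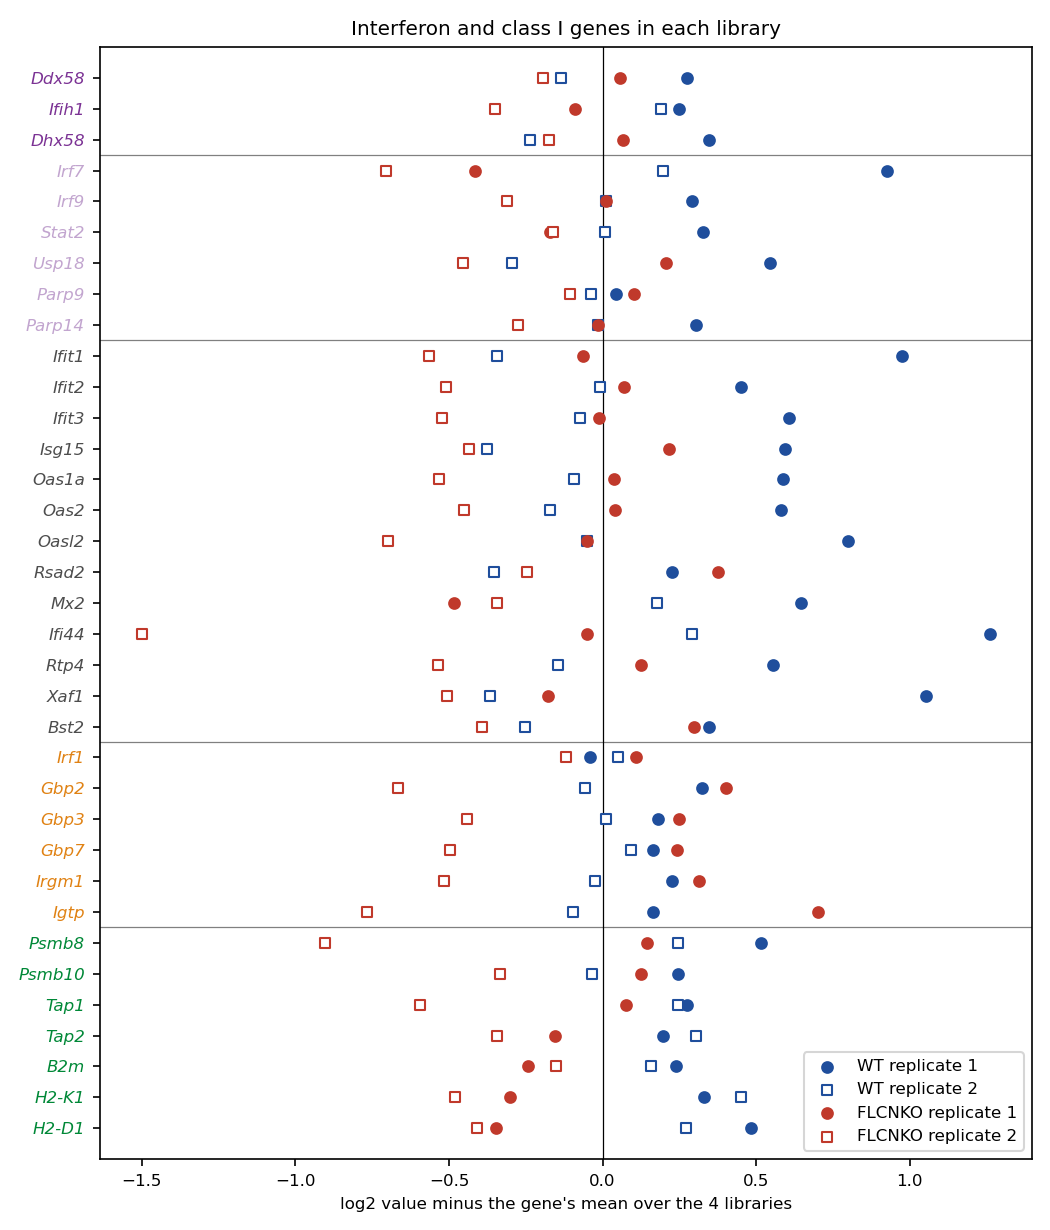
Each row is 1 of the 35 members, grouped by role, and the horizontal axis is its log2 value minus its own mean over the 4 libraries (blue WT, red FLCNKO; filled circles replicate 1, open squares replicate 2). Blue lies to the right of red in 11 rows, among them H2-K1, H2-D1, B2m, Tap2 and Irf7, while in the rows of Irf1 and the GTPases the filled red circle lies farthest right and the open red square farthest left.

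The interferon receptor genes were at like levels in the groups, apart from Ifngr1. Ifnar1 was 12.45 and 12.51 in WT and 12.54 and 12.53 in FLCNKO, a log2 fold change of 0.06 ± 0.10 (SE). Ifnar2 (0.09 ± 0.11) and Ifngr2 (0.02 ± 0.11) also lay near 0. In Ifnar1 and in Ifnar2 (11.68 and 11.75 against 11.80 and 11.82) both FLCNKO values were slightly above both WT values. Ifngr1, which binds interferon gamma itself, was 15.04 and 14.99 in WT and 14.26 and 14.58 in FLCNKO. Both FLCNKO values were below both WT values, and the difference of -0.60 ± 0.14 (SE) did not pass (limma adjusted p = 0.0999).

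Of the whole list of 17 receptor and signalling genes, 0 passed in either direction, and the median log2 fold change was -0.22. At an unadjusted p under 0.05, 4 were lower (23.5% against 10.3% of all genes) and 0 higher (12.1% of all genes). Without overlap, 9 were lower (52.9% against 25.4% of all genes) and 2 higher (11.8% against 29.2%). Irf5, a myeloid interferon regulatory factor, was 11.38 and 11.01 in WT and 10.45 and 10.05 in FLCNKO (-0.94 ± 0.21, SE; limma adjusted p = 0.088). Irf2, which competes with IRF1 for its sites, was 12.09 and 12.06 in WT and 11.65 and 11.50 in FLCNKO (-0.50 ± 0.11, adjusted p = 0.0915 by limma). In Irf5 and Irf2 the groups did not overlap.

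The type I members began with 3 sensors of viral RNA in the cytosol. Ifih1, which encodes MDA5, was 11.69 and 11.63 in WT and 11.35 and 11.09 in FLCNKO. The groups did not overlap, and the fold change of -0.44 ± 0.14 (SE; 95% interval -0.79 to -0.09) did not pass (limma adjusted p = 0.154). Ddx58, which encodes RIG-I, was 11.88 and 11.47 in WT and 11.66 and 11.41 in FLCNKO, and Dhx58, which encodes their regulator LGP2, was 10.07 and 9.49 against 9.79 and 9.55. In both genes WT replicate 1 was highest and the groups overlapped. Of 16 other genes of nucleic acid sensing, 0 passed, and the median was -0.23. At an unadjusted p under 0.05, 3 were lower (18.8% against 10.3% of all genes) and 1 higher (6.25% against 12.1%). Samhd1, which depletes nucleotides needed by retroviruses, was 14.20 and 14.03 in WT and 13.43 and 13.11 in FLCNKO (-0.85 ± 0.15, SE; limma adjusted p = 0.0647). Unc93b1, which escorts the endosomal Toll-like receptors, was 13.35 and 12.98 against 12.54 and 12.37 (-0.71 ± 0.16). Tlr7, such a receptor for RNA, was 11.33 and 10.92 against 10.55 and 9.86 (-0.92 ± 0.28). These 3 were lower in both FLCNKO libraries than in both WT libraries.

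Irf7, the master regulator that amplifies type I interferon production, had the clearest difference of the type I members. Its values were 12.83 and 12.10 in WT and 11.49 and 11.20 in FLCNKO, means of 12.47 ± 0.51 and 11.34 ± 0.21 (SD, n = 2). The groups did not overlap, and the mean was 2.18-fold lower in FLCNKO (log2 fold change -1.12 ± 0.27, SE; 95% interval -1.80 to -0.44; limma adjusted p = 0.0987). Without WT replicate 1 the Irf7 change was -0.76. Stat2, a subunit of the factor ISGF3 together with IRF9, was 12.24 and 11.92 in WT and 11.74 and 11.75 in FLCNKO, again without overlap (-0.33 ± 0.14, limma adjusted p = 0.26). It was -0.17 without WT replicate 1.

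The other members of this role overlapped between the groups. Irf9 was 11.83 and 11.55 in WT and 11.55 and 11.23 in FLCNKO. Usp18, which removes ISG15 from proteins and dampens the type I receptor, was 10.42 and 9.58 in WT and 10.08 and 9.42 in FLCNKO. Parp14, an ADP-ribosyl transferase, was 12.83 and 12.51 in WT and 12.51 and 12.25 in FLCNKO. Each of the 3 was highest in WT replicate 1 and lowest in FLCNKO replicate 2. Parp9, a partner of the ubiquitin ligase DTX3L, was 12.61 and 12.53 in WT and 12.67 and 12.46 in FLCNKO, with an interval for its log2 fold change from -0.32 to 0.31.

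Among the 13 antiviral effectors, Ifi44 had the largest difference of all members. It was 10.05 and 9.08 in WT and 8.74 and 7.29 in FLCNKO, a log2 fold change of -1.55 ± 0.58 (SE; 95% interval -3.03 to -0.07; limma adjusted p = 0.207). The groups did not overlap, but the FLCNKO libraries differed from each other by 1.45, and the change was -2.28 without FLCNKO replicate 1 and -0.82 without FLCNKO replicate 2. Mx2, an antiviral dynamin-like GTPase, was 8.28 and 7.81 in WT and 7.15 and 7.29 in FLCNKO (-0.83 ± 0.31, SE; limma adjusted p = 0.21). Both FLCNKO values of Mx2 were below both WT values.

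The remaining 11 effectors overlapped between the groups, and WT replicate 1 was the highest library in all of them except Rsad2. Ifit1, which binds viral RNA that lacks cap methylation, was 11.26 and 9.94 in WT and 10.22 and 9.72 in FLCNKO. Ifit2 was 10.94 and 10.48 against 10.56 and 9.98, and Ifit3 was 11.96 and 11.28 against 11.34 and 10.83. In all 3 IFIT genes WT replicate 1 stood highest, FLCNKO replicate 2 lowest, and FLCNKO replicate 1 above WT replicate 2. Isg15, the ubiquitin-like modifier, was 9.75 and 8.78 in WT and 9.37 and 8.72 in FLCNKO. Rtp4 was 10.98 and 10.28 against 10.55 and 9.89, and Xaf1, an inducer of apoptosis, was 11.84 and 10.42 against 10.61 and 10.28. For Xaf1 the WT libraries were 1.42 apart, while the log2 fold change was -0.69 ± 0.47 (SE).

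Oas1a, Oas2 and Oasl2 belong to the oligoadenylate synthetase family, which activates RNase L or, in OAS-like members, aids sensing. Oas1a was 9.61 and 8.93 in WT and 9.06 and 8.49 in FLCNKO, and Oas2 was 11.37 and 10.62 against 10.83 and 10.34. Oasl2 was 11.70 and 10.85 in WT and 10.85 and 10.20 in FLCNKO, the largest difference of the 3 (-0.75 ± 0.35, SE; limma adjusted p = 0.289). In these genes, too, WT replicate 1 was highest and FLCNKO replicate 2 lowest. Oas1a shares 68.8% of its stretches of 31 bases with other genes, most with Oas1g, and Ifit3 shares 61.8%, most with Ifit3b, so the values of both are uncertain. Rsad2, which encodes viperin, was the 1 member with a higher mean in FLCNKO, with 10.42 and 9.84 in WT and 10.57 and 9.95 in FLCNKO (0.13 ± 0.30, SE). Bst2, which encodes tetherin and holds budding virus at the membrane, was 12.30 and 11.70 against 12.25 and 11.56. For Rsad2 and Bst2 the replicate 1 libraries of both groups stood above both replicate 2 libraries.

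Over the 22 type I members the median log2 fold change was -0.41, with 4 lower and 0 higher at an unadjusted p under 0.05 and groups without overlap in 5. These are 18.2% against 10.3% of all genes for the former and 22.7% against 25.4% for the latter. WT replicate 1 was above WT replicate 2 in 22 of 22 genes (45.6% of all genes), by a median of 0.64, and FLCNKO replicate 1 was above FLCNKO replicate 2 in 20 of 22 (48.6% of all genes), by a median of 0.50. WT replicate 2 was above FLCNKO replicate 1 in 5 of 22. Relative to each gene's mean over the libraries, the type I median was 0.55 in WT replicate 1, -0.09 in WT replicate 2, 0.03 in FLCNKO replicate 1 and -0.45 in FLCNKO replicate 2. With WT replicate 1 left out the median fold change became -0.09, with WT replicate 2 left out -0.69, with FLCNKO replicate 1 left out -0.62 and with FLCNKO replicate 2 left out -0.16. In 17 of 22 type I genes (77.3%) the libraries of a group differed by more than the group means did.

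**Figure D2:**
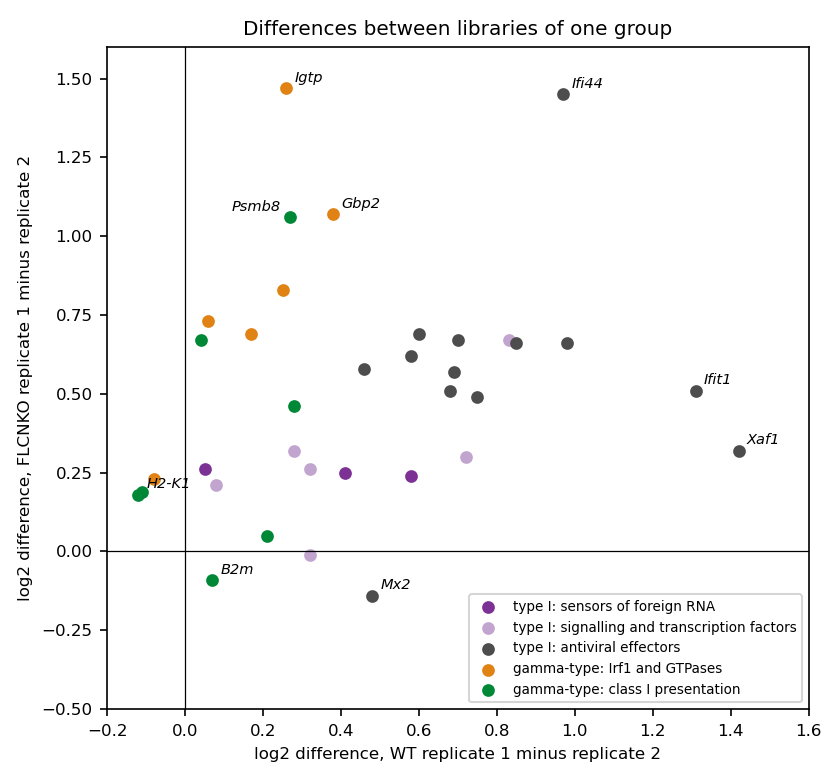
Each point is a member; the horizontal axis is its log2 difference between the WT libraries and the vertical axis that between the FLCNKO libraries (replicate 1 minus replicate 2 in both), coloured by role. Most type I points lie right of 0 and above it, the GTPases lie high but near the left, with Igtp at 0.26 and 1.47, and H2-K1, H2-D1 and B2m lie close to 0 on both axes.

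The other interferon-stimulated genes of a wider list gave 34 measured members, of which 0 passed in either direction. At an unadjusted p under 0.05, 11 were lower (32.4% against 10.3% of all genes) and 1 higher (2.94% against 12.1%). Without overlap, 19 were lower (55.9% against 25.4% of all genes). Their median was -0.37. Ifi27l2a, a small membrane protein gene induced by interferon, was 15.12 and 15.18 in WT and 14.33 and 13.98 in FLCNKO, a log2 fold change of -1.0 ± 0.15 (SE; limma adjusted p = 0.0547). Trafd1, a negative regulator of Toll-like receptor signalling, was 13.19 in both WT libraries and 12.48 and 12.56 in FLCNKO (-0.67 ± 0.10, adjusted p = 0.0547 by limma). Isg20, an exonuclease gene, was 9.92 and 10.08 against 8.96 and 9.15 (-0.95 ± 0.17, SE). In these 3 genes the difference between groups was larger than that between libraries of a group. Ifi27l2a and Trafd1 were called lower when genes with a mean under 8 were left out (limma adjusted p = 0.048 for each) and with robust variance moderation (0.0489 and 0.0467).

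The gamma-type members fell into a pair of sets that behaved differently between libraries. The first set was Irf1, the transcription factor of the second wave, with 5 GTPases that take part in defence against intracellular microbes. Irf1 was 12.17 and 12.26 in WT and 12.32 and 12.09 in FLCNKO, with a log2 fold change of -0.01 ± 0.13 (SE; 95% interval -0.33 to 0.32). Of the guanylate-binding proteins, Gbp2 was 13.27 and 12.89 in WT and 13.35 and 12.28 in FLCNKO, Gbp3 was 11.86 and 11.69 against 11.93 and 11.24, and Gbp7 was 12.36 and 12.29 against 12.44 and 11.70. Of the immunity-related GTPases, Irgm1 was 11.88 and 11.63 against 11.97 and 11.14, and Igtp was 11.49 and 11.23 against 12.03 and 10.56.

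In 6 of 6 of these genes FLCNKO replicate 1 was highest and FLCNKO replicate 2 lowest, an order that 5.38% of all genes had. The FLCNKO libraries differed by a median of 0.78 and the WT libraries by 0.21. The set's median fold change of -0.19 was -0.62 without FLCNKO replicate 1 and 0.19 without FLCNKO replicate 2, so its direction rested on the latter library. Of 8 other interferon-induced GTPases, 0 passed and 0 were at an unadjusted p under 0.05 in either direction, and FLCNKO replicate 1 was highest in 8 of 8 (26.9% of all genes). Iigp1 was 11.96 and 11.86 in WT and 12.90 and 11.08 in FLCNKO. Tgtp1 and Gvin1, with log2 fold changes of 0.99 ± 0.65 and 0.69 ± 0.48 (SE), share 84.4% and 99.7% of their stretches of 31 bases with transcripts of other genes and are uncertain. Gbp4 was 10.62 and 10.90 in WT and 11.39 and 10.64 in FLCNKO. Iigp1 is named outside the rule for named genes, after its values were seen.

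The markers of T and NK cells, the main source of interferon gamma, also differed between the FLCNKO libraries. FLCNKO replicate 1 was above FLCNKO replicate 2 in 11 of 12 T and NK markers (91.7% against 48.6% of all genes), by a median of 1.29. Ncr1 went the other way and was the 1 marker without overlap, with 8.03 and 8.15 in WT and 6.69 and 6.95 in FLCNKO. It is named after its values were seen. FLCNKO replicate 1 was highest and FLCNKO replicate 2 lowest in 6 of 12 T and NK markers (50% against 5.38% of all genes). Values of the list ran from 5.21 to 9.19, below the library medians. The list's median relative to the gene means was 0.41 and -0.29 in WT and 0.63 and -0.68 in FLCNKO. The summed linear level of the list was 3192 and 2415 in WT and 3697 and 1526 in FLCNKO. Cd3e, a T cell receptor chain gene, was 7.13 and 6.01 in WT and 7.65 and 6.70 in FLCNKO, Cd8a was 8.36 and 6.71 against 7.98 and 6.51, and the cytotoxic granule gene Nkg7 was 8.34 and 8.49 against 8.62 and 7.65. The split was not particular to this list. FLCNKO replicate 1 was above FLCNKO replicate 2 in 4 of 4 B cell, 5 of 5 pan-leukocyte and 12 of 13 macrophage markers. So it was in 9 of 10 skeletal muscle, 5 of 7 fibroblast and 4 of 7 dendritic cell markers. It was so in 2 of 7 endothelial, 1 of 8 adipocyte and 1 of 3 keratinocyte and duct markers. The part of any of these cell types in the GTPase values was not tested.

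The second set, class I presentation, held the members in which the groups stood apart most clearly. H2-K1, a classical heavy chain gene, was 16.99 and 17.11 in WT and 16.36 and 16.18 in FLCNKO, means of 17.05 ± 0.09 and 16.27 ± 0.13 (SD, n = 2). It was 1.72-fold lower (log2 fold change -0.78 ± 0.14, SE; 95% interval -1.14 to -0.42), with the smallest adjusted p of the members (limma, 0.0647). H2-D1, the other classical heavy chain gene, was 17.76 and 17.55 in WT and 16.93 and 16.87 in FLCNKO (-0.76 ± 0.15, SE; limma adjusted p = 0.0722). In both genes each FLCNKO library lay below each WT library, and the libraries of a group differed by less than the group means did. H2-K1 and H2-D1 share 22.8% and 26.9% of their 31-base stretches with other genes, so reads may have been split between them or with other class I genes.

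B2m, the light chain of all class I molecules, was 17.69 and 17.61 in WT and 17.21 and 17.30 in FLCNKO. The groups did not overlap, and the log2 fold change of -0.40 ± 0.14 (SE; 95% interval -0.75 to -0.04) did not pass (limma adjusted p = 0.19). Tap2, a subunit of the peptide transporter, was 12.65 and 12.76 in WT and 12.30 and 12.11 in FLCNKO, again without overlap (-0.49 ± 0.12, SE; limma adjusted p = 0.103). Its partner Tap1 was 11.93 and 11.90 in WT and 11.73 and 11.06 in FLCNKO, and its change of -0.52 ± 0.24 was -0.86 without FLCNKO replicate 1 and -0.19 without FLCNKO replicate 2. Of the immunoproteasome genes, Psmb8 was 12.87 and 12.60 in WT and 12.50 and 11.45 in FLCNKO (-0.76 ± 0.36), and -0.23 without FLCNKO replicate 2. Psmb10 was 12.12 and 11.84 against 12.00 and 11.54, with overlap.

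The standard subunits that immunoproteasome subunits replace did not share this direction. Psmb6 was 13.21 and 13.14 in WT and 13.27 and 13.17 in FLCNKO (0.05 ± 0.11, SE). Psmb7, replaced by PSMB10, was 13.28 and 13.42 against 13.76 and 13.53, higher in both FLCNKO libraries without passing (0.29 ± 0.13, limma adjusted p = 0.261). Psmb5, replaced by PSMB8, was 11.35 and 10.02 against 11.39 and 10.36, but it shares 71.7% of its 31-base stretches with other genes and is uncertain. The difference between immuno and standard subunits was not tested.

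Over the 7 measured class I presentation members the median log2 fold change was -0.52. At an unadjusted p under 0.05, 4 were lower (57.1% against 10.3% of all genes) and 0 higher (12.1% of all genes). Without overlap, 6 of 7 were lower, or 85.7% against 25.4% of all genes. With 1 WT library left out the median was -0.55 (replicate 1) or -0.54 (replicate 2), and with 1 FLCNKO library left out it was -0.79 (replicate 1) or -0.40 (replicate 2). In 18 further genes of class I presentation 0 passed, and the median was -0.27. Of these, 4 were lower at an unadjusted p under 0.05 (22.2% against 10.3% of all genes) and 0 higher. Tapbp, the tapasin gene that joins class I to TAP, was 14.42 and 14.49 in WT and 13.97 and 13.96 in FLCNKO (-0.49 ± 0.10, SE; limma adjusted p = 0.0809). Nonclassical heavy chain genes H2-T22 (14.32 and 14.17 against 13.74 and 13.25) and H2-T23 (13.66 and 13.01 against 12.82 and 12.13) had no overlap either. H2-T22, H2-T23 and Tapbp share 67.4%, 25.8% and 26.9% of their 31-base stretches with other genes, so their reads may have been split. Nlrc5, the transactivator of class I genes, was not lower, with 12.10 and 12.09 in WT and 12.30 and 12.18 in FLCNKO (0.15 ± 0.11, SE; limma adjusted p = 0.483).

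**Figure D3:**
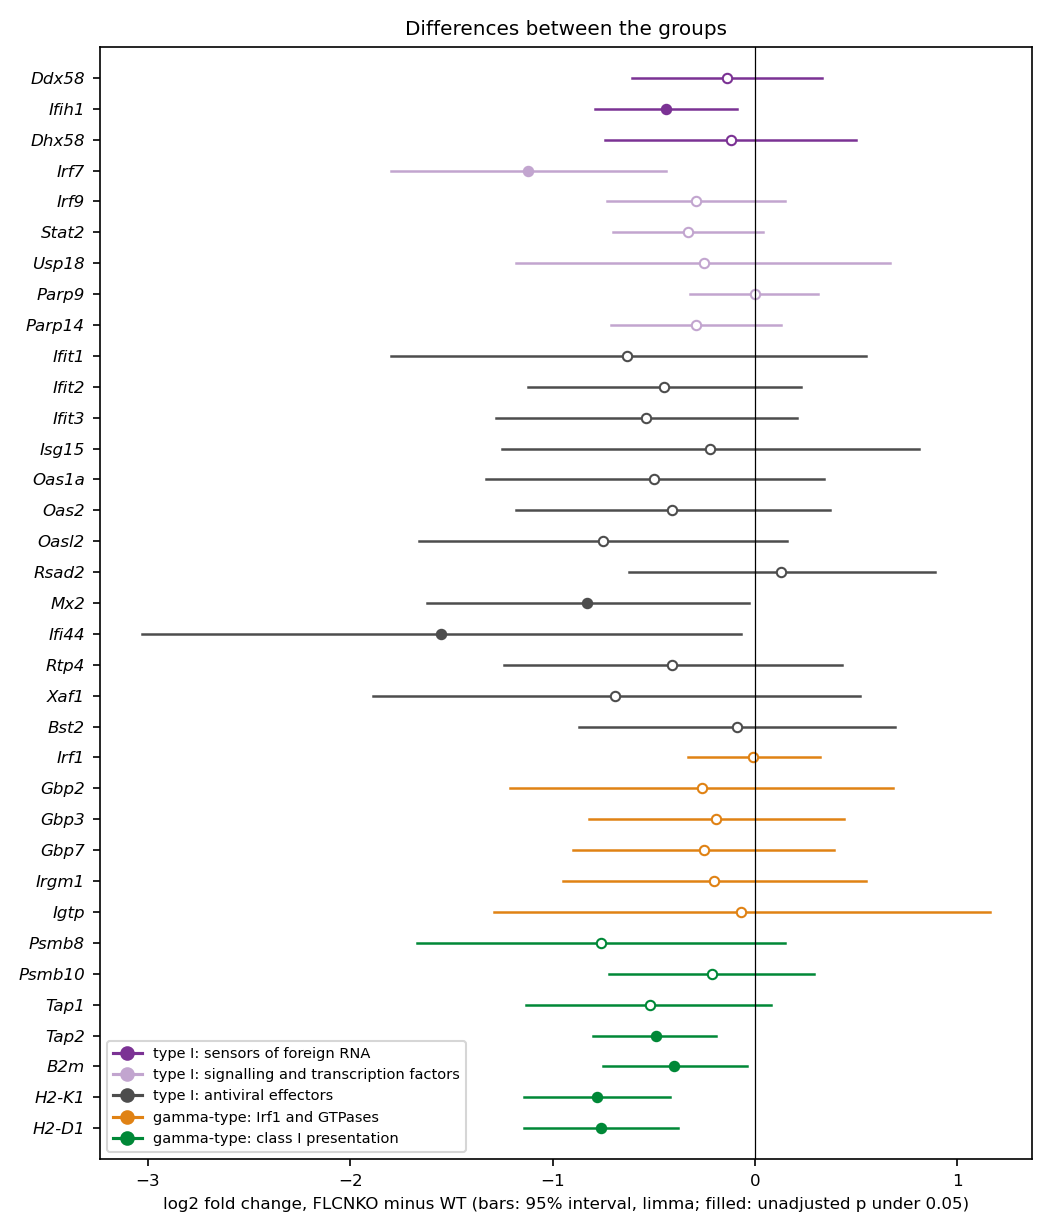
Points are log2 fold changes (FLCNKO minus WT) of the 35 members with 95% intervals from limma as bars, coloured by role; filled points have an unadjusted p under 0.05. The 8 filled points are Ifih1, Irf7, Mx2, Ifi44, Tap2, B2m, H2-K1 and H2-D1, and the intervals of all of Irf1 and the GTPases cross 0.

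Set side by side, the 13 gamma-type members had a median log2 fold change of -0.26 and the 22 type I members of -0.41, a difference of 0.14. This difference was -0.13 without WT replicate 1 and -0.00092 without FLCNKO replicate 1, so neither class can be ranked below the other. The gamma-type median itself was -0.62 without FLCNKO replicate 1 and 0.02 without FLCNKO replicate 2, and it was -0.22 or -0.43 with WT replicate 1 or 2 left out. Relative to gene means, the gamma-type median was 0.23 in WT replicate 1, 0.10 in WT replicate 2, 0.12 in FLCNKO replicate 1 and -0.48 in FLCNKO replicate 2. The WT libraries stood 0.64 apart in the median type I gene and 0.17 apart in the median gamma-type gene, while the FLCNKO libraries stood 0.50 and 0.67 apart. WT replicate 1 was the highest library in 20 of 22 type I genes (90.9%) and in 5 of 13 gamma-type genes (38.5%), and in 23.9% of all genes.

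The median log2 fold change was below 0 in every marker list, as in the members. It was -0.80 for pan-leukocyte, -0.77 for macrophage, -0.91 for fibroblast and -2.23 for B cell markers. For dendritic cell markers it was -0.40, for T and NK cell markers -0.20, and for keratinocyte and duct markers -0.46. For skeletal muscle markers it was -2.76, with groups that overlapped in 9 of 10. Of 5 pan-leukocyte markers, 5 had a lower mean in FLCNKO and 0 passed, and Ptprc, which encodes CD45, was 12.75 and 12.22 in WT and 12.14 and 11.42 in FLCNKO. Their summed linear level was 31918 and 23311 in WT and 19236 and 13048 in FLCNKO, and the order of the libraries was the same in 4 of 5: WT replicate 1, WT replicate 2, FLCNKO replicate 1, FLCNKO replicate 2. The members had that order in 6 of 35 genes (17.1%, against 8.34% of all genes), and the type I members in 3 of 22. Of 13 macrophage markers, 2 were lower and 0 higher by limma (0.614% and 0.98% of all genes), and 11 were lower without overlap (84.6% against 25.4% of all genes), with summed levels of 249181 and 215081 in WT and 141047 and 120505 in FLCNKO. The macrophage genes Adgre1 (12.43 and 12.20 against 12.18 and 11.57), Cd68 (12.04 and 11.92 against 11.58 and 11.06) and Itgam (12.55 and 12.44 against 11.44 and 11.25) were lower in both FLCNKO libraries. Itgam passed (limma adjusted p = 0.0404), as did C1qc, a complement gene (14.32 and 14.14 against 13.28 and 13.15, limma adjusted p = 0.0419). The groups overlapped in 2 macrophage markers, Fcgr1 (9.43 and 9.09 against 9.61 and 8.88) and Mertk (12.10 and 12.20 against 11.84 and 12.60). C1qc, Fcgr1 and Mertk are named outside the rule for named genes, after their values were seen. None of these markers was at the floor of the tables.

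Of 7 fibroblast markers, 7 had a lower mean in FLCNKO, and the median log2 fold change was -0.91. Of the 7, 6 were lower without overlap (85.7% against 25.4% of all genes) and 2 were called lower by limma (0.614% of all genes). Col1a1, a collagen I chain gene, was 16.62 and 16.37 in WT and 15.16 and 15.34 in FLCNKO (-1.25 ± 0.15, SE; limma adjusted p = 0.0419). Col1a2, which encodes the other collagen I chain, was 17.56 and 17.46 against 16.43 and 16.36 (-1.12 ± 0.13, SE; limma adjusted p = 0.0419). As in H2-K1, H2-D1 and B2m, both FLCNKO libraries lay below both WT libraries in these genes. The summed level of the fibroblast list was 923023 and 839332 in WT and 464168 and 423126 in FLCNKO. The collagen genes are named outside the rule for named genes, after their values were seen.

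The 4 measured B cell markers had summed levels of 7886 and 1835 in WT and 1554 and 453 in FLCNKO, highest in WT replicate 1 and lowest in FLCNKO replicate 2. Of 7 dendritic cell markers, 2 were lower and 2 higher in FLCNKO without overlap, 28.6% each way. These shares were near those of all genes, 25.4% lower and 29.2% higher. The sums of the list were 3470 and 2679 in WT and 2631 and 2404 in FLCNKO. Siglech, a marker of plasmacytoid dendritic cells, which make much type I interferon, was 8.84 and 8.0 against 7.54 and 7.76, and Itgax was 8.22 and 9.04 against 8.30 and 8.94. The 2 higher ones, named after their values were seen, were Xcr1 (6.19 and 5.94 against 7.25 and 6.36) and Clec9a (7.42 and 8.02 against 8.49 and 8.24), both markers of cross-presenting dendritic cells. WT replicate 1 was the highest library in 5 of 5 pan-leukocyte and 4 of 4 B cell markers, as in most type I members. The median log2 fold change was -0.06 over endothelial markers, and Pecam1 was 13.11 and 13.00 against 12.79 and 13.20. Over adipocyte markers it was -0.22, with Adipoq at 18.31 and 18.17 against 17.72 and 17.85. Adipoq was 1 of 2 adipocyte markers lower without overlap (25% against 25.4% of all genes), and the groups overlapped in the other 6 of 8. FLCNKO replicate 1 was above FLCNKO replicate 2 in 1 of 8 adipocyte markers (12.5% against 48.6% of all genes). Relative to gene means, the adipocyte median was -0.29 in FLCNKO replicate 1 and 0.13 in FLCNKO replicate 2. Of 3 measured keratinocyte and duct markers, 3 had a lower mean in FLCNKO, but the groups overlapped in 2. These were Krt8 (log2 fold change -0.01 ± 0.47, SE) and Krt18 (-0.46 ± 0.35, SE). The third, Trp63, was called lower (limma adjusted p = 0.0478), as were 0.614% of all genes. Its values were 10.07 and 10.98 in WT and 8.13 and 7.88 in FLCNKO. The sums of the list, 1367 and 2420 in WT and 508 and 595 in FLCNKO, differed mainly through Trp63. These 3 markers are named after their values were seen. Of 10 skeletal muscle markers, 9 were highest in WT replicate 1, and FLCNKO replicate 1 stood above FLCNKO replicate 2 by a median of 5.83. The creatine kinase gene Ckm was 13.93 and 10.59 in WT and 12.61 and 3.94 in FLCNKO, and the myosin gene Myh4 was 15.51 and 11.49 against 14.32 and 5.0, both named after their values were seen. FLCNKO replicate 2 was not the lowest library for Acta1 (14.50 and 12.21 against 13.29 and 13.32) or Des (11.86 and 10.45 against 12.07 and 10.99). Des, too, is named after its values were seen. Of the type I members, 18 of 22 were lowest in FLCNKO replicate 2 (81.8% against 24.1% of all genes). The part of any of these cell types in the interferon and class I values was not tested.

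**Figure D4:**
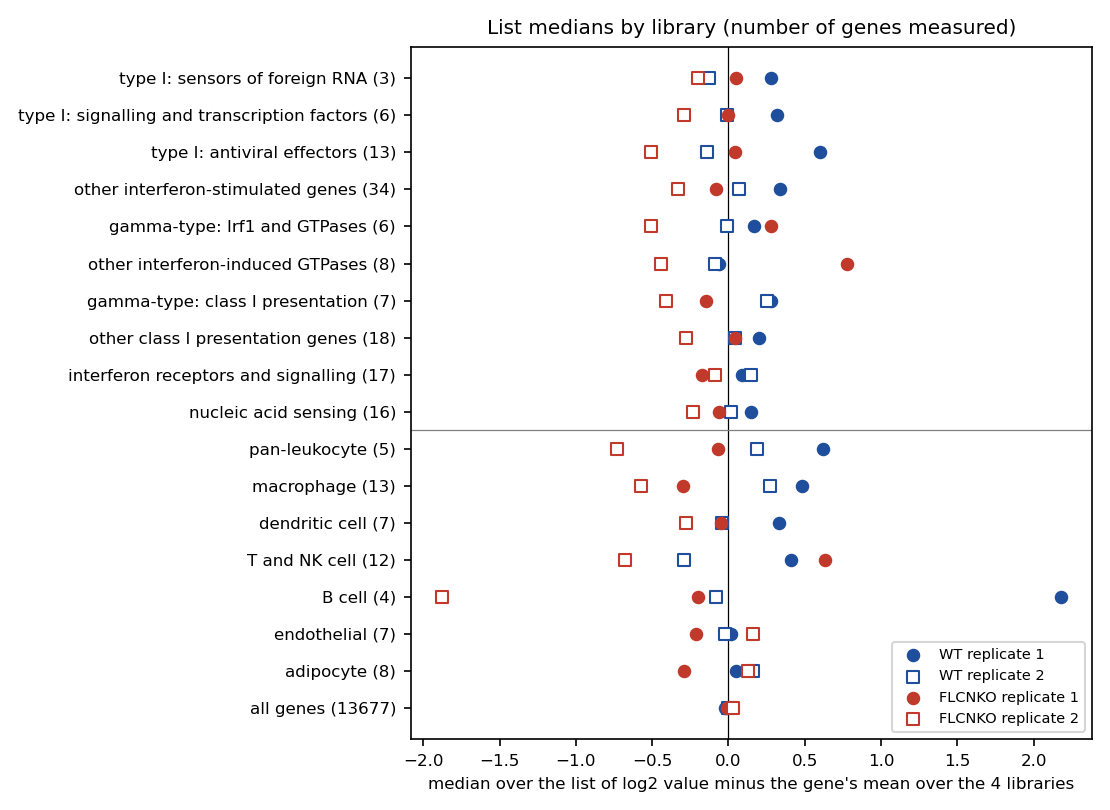
Each row is a gene list with its number of measured genes, and each symbol the median over the list of the log2 value minus the gene's mean over the 4 libraries (blue WT, red FLCNKO; filled circles replicate 1, open squares replicate 2). Type I effectors run from 0.60 in WT replicate 1 to -0.51 in FLCNKO replicate 2, pan-leukocyte markers from 0.62 to -0.73, and in both GTPase lists, as in T and NK cell markers, the filled red circle lies farthest right; the median over all genes lies within 0.03 of 0 in every library.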

How the data were processed

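RNA of inguinal fat was sequenced in 4 libraries, and groups and replicate numbers were read from the titles. The deposited tables, 1 from each library, hold log2 values of expression for 13677 genes under Ensembl identifiers. Per the submitters' processing notes, STAR and limma were used with build mm9, and no versions are stated. No source used here gives the counting program, annotation or strand setting. The depth is unknown, so no counting interval is given, and forced equal distributions hide a shift shared by most genes. Symbols were matched by identifier for 13592 genes.

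Groups were compared with limma 3.58.1 (R 4.3.3) on the log2 values, with group as the only term, a mean-variance trend (residual degrees of freedom 2, prior 3.09), two-sided tests and Benjamini-Hochberg adjustment over all 13677 genes at 0.05. No filter was applied. The fit was tested on simulated data. Lists are described by counts and medians only. Members and lists were chosen with earlier results of these data known. Named were all members, the 3 genes of smallest p in each pathway list (none passed), and receptors, Nlrc5, proteasome subunits and leading markers set by name, except some not reported here. A linear level is 2 raised to the log2 value, with no unit. Of 99 other pathway genes 96 had values, and of 80 markers 76 did; without values were Trex1, Gbp5 and Gbp6, and Igll1, Krt5, Krt14 and Epcam. Shared sequence is the percentage of a gene's 31-base stretches, on either strand, found in GENCODE M21 transcripts of other genes. Promoter windows came from RefSeq on GRCm38.p6, not mm9, and were used for letters only.

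Alternatives were repeated quantile normalization, median centring, 2 filters on low values, variance moderation without the trend or robust, the replicate number as a block, and 1 library left out at a time.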

Additional observations from a re-analysis of the deposited data

How the results depend on the processing

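Of the 35 members, 35 kept the sign of their fold change under repeated quantile normalization, median centring, the 10th percentile filter, fits without the trend or robust, and the replicate block, and 34 of 34 when genes with a mean under 8 were removed. Leaving out a library reversed 9 members without WT replicate 1, 2 without WT replicate 2, 1 without FLCNKO replicate 1 and 12 without FLCNKO replicate 2. With 1 library left out, the log2 fold changes of members that changed sign ranged from -0.35 to 0.06 for Ddx58, -0.41 to 0.17 for Dhx58, -0.67 to 0.17 for Usp18, -0.11 to 0.10 for Parp9, -1.28 to 0.03 for Ifit1, -0.71 to 0.27 for Isg15, -0.18 to 0.44 for Rsad2, -1.39 to 0.02 for Xaf1, -0.44 to 0.25 for Bst2, -0.12 to 0.11 for Irf1, -0.80 to 0.27 for Gbp2, -0.53 to 0.16 for Gbp3, -0.62 to 0.11 for Gbp7, -0.62 to 0.22 for Irgm1, -0.80 to 0.67 for Igtp and -0.44 to 0.02 for Psmb10. Of other named genes they ranged from -0.03 to 0.07 for Ifngr2, -0.12 to 0.63 for Gbp4, -0.83 to 1.0 for Iigp1, -0.48 to 0.85 for Psmb5 and -0.003 to 0.10 for Psmb6. In the same fits medians ranged from -0.69 to -0.09 for type I, -0.62 to 0.02 for gamma-type, -0.62 to 0.19 for Irf1 with the GTPases and -0.79 to -0.40 for class I presentation, and gamma-type minus type I from -0.13 to 0.26, with -0.00092 without FLCNKO replicate 1. Members lower at an unadjusted p under 0.05 ranged from 3 to 14 and members higher from 0 to 1. Genes called by limma over the whole table, 84 lower and 134 higher, fell to 0 and 0 with any library left out and without the trend (2702 genes then at an unadjusted p under 0.05). Genes called lower numbered 138 with a mean of at least 8 and 143 with robust moderation, each with 2 of the pathway genes lower. The labels do not say that replicate numbers pair libraries. Deviations of the replicate 1 libraries from their group means correlated at 0.363 over all genes. With the replicate block limma called 441 genes lower and 401 higher, among them 3 members lower (Irf7 with adjusted p = 0.0321, Oasl2 with 0.046 and Ifi44 with 0.0336), 16 members were lower at an unadjusted p under 0.05, and 12 pathway genes were called lower. The causes were not tested. Depth is unknown, so what it limits could not be measured.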

Other observations

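A few genes of the interferon pathway went the other way without passing. Ifi27, a mitochondrial protein gene, was 15.14 and 15.03 in WT and 15.70 and 15.46 in FLCNKO (log2 fold change 0.49 ± 0.14, SE; limma adjusted p = 0.124). Mavs, the adaptor on mitochondria to which RIG-I and MDA5 signal, was 12.23 and 12.29 against 12.55 in both FLCNKO libraries (0.29 ± 0.10, limma adjusted p = 0.191). Cgas, the cytosolic DNA sensor, was 7.71 in both WT libraries and 8.08 and 8.28 in FLCNKO, while its partner Tmem173, which encodes STING, was 10.76 and 10.31 against 10.22 and 9.94. In each of these 4 genes the groups did not overlap.

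Ifi44l, the neighbouring relative of Ifi44, was 7.11 and 6.87 in WT and was listed at the lowest value of the table in each FLCNKO library, 1 and 2.37. No fold change is given, because those libraries give only a floor. No 31-base stretch of Ifi44l was shared with other genes. The genes of these observations lie outside the rule for named genes and were chosen after their values were seen.

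Members whose promoter window held the ISRE core as spelled here had a median log2 fold change of -0.25 over 15 genes. It was -0.72 over the 12 measured members with a window and no such match, H2-K1 and H2-D1 among them. A window without a match may hold an element spelled otherwise, so the 12 are not genes known to lack an ISRE. The 2 members with enhancer A, H2-K1 and H2-D1, had a median of -0.77. These are descriptions of few genes, with no test.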
